A study of Mus musculus with 32 samples.

Results

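Adipokines are proteins that fat cells secrete and that act on other tissues. This account covers 7 of their genes, Adipoq, Retn, Cfd, Lep, Rarres2, Apln and Nampt, taken by symbol from the 20560 genes of the deposited table. All 7 were found, each on 1 row, and their values were read in all 32 libraries. The libraries came from 3T3-L1, a clonal line of mouse preadipocytes used as a model of fat cell formation. Cells carried a short hairpin RNA (shRNA) against Zbtb9, whose name marks a protein with zinc fingers and a BTB domain, or a scramble control hairpin. RNA was sequenced at days 0, 3, 7 and 11 of adipogenesis, with 2 libraries per day for shRNA 1, 2 for shRNA 2 and 4 for the control. At day 0 confluent cells received dexamethasone, isobutylmethylxanthine and insulin. At day 3 this was replaced by insulin alone, and at day 7 by medium without additions. Both arms followed this schedule, each library only up to its own day, and all came from the same line. The labels call the libraries of a group biological replicates without saying whether they were separate cultures, so p-values measure the spread between these libraries.

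The members differ in how they act. Adiponectin (Adipoq) binds the receptors AdipoR1 and AdipoR2 and T-cadherin and is known for raising insulin sensitivity, while resistin (Retn) is a mouse adipocyte hormone that opposes insulin action. Adipsin (Cfd) is complement factor D, the protease that activates factor B in the alternative complement pathway, and chemerin (Rarres2) is a chemoattractant read by the receptor Cmklr1. Leptin (Lep) reports fat stores to the brain, apelin (Apln) signals through the receptor Aplnr, and Nampt is the rate-limiting enzyme of NAD salvage that is also released from fat as visfatin. In fat cells Pparg and Cebpa are known as the main activators of adiponectin and several other adipokine genes.

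The promoter sequences below are shown because the members split into genes at the floor at day 0, genes that were already on, and 1, Lep, with few reads throughout. Each is the 250 bases before the RefSeq start, 5′ to 3′ on the gene's strand, in GRCm38.p6. RefSeq's promoter table matched 6 members, all but Rarres2. Capitals mark matches to any of 4 motifs, searched on both strands. The C/EBP motif was spelled TTGCNNAA and the nuclear receptor half-site AGGTCA. The box named for its letters was searched as CCAAT. The fourth, the TATA box, was spelled TATAAA, and matches to different motifs did not overlap.
Adipoq, chr16:23146286-23146535, plus strand: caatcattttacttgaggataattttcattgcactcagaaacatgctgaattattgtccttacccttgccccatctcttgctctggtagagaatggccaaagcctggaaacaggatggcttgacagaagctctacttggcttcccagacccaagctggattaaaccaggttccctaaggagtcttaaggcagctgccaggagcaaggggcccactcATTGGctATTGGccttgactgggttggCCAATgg
Retn, chr8:3655520-3655769, plus strand: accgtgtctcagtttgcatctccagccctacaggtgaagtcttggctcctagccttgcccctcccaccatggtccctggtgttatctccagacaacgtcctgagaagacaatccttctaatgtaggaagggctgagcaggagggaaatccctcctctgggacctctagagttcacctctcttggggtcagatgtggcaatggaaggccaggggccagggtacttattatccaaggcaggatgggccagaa
Cfd, chr10:79890603-79890852, plus strand: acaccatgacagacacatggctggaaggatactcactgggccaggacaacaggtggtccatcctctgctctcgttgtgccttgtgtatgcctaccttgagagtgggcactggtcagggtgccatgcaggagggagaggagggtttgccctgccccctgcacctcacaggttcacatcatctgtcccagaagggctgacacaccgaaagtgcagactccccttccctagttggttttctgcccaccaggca
Nampt, chr12:32820085-32820334, plus strand: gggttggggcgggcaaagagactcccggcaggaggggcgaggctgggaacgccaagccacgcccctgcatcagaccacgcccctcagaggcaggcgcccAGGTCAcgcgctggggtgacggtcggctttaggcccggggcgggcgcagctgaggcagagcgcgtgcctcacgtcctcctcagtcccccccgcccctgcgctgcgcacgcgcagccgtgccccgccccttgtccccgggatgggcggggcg
Lep, chr6:29059971-29060220, plus strand: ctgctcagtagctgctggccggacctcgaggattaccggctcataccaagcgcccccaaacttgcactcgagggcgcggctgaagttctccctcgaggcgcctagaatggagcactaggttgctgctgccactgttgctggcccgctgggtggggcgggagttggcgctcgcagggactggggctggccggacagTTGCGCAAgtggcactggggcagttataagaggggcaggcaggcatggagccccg

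The Adipoq window held 3 CCAAT matches, at positions -34, -27 and -7 counted back from the start, the first 2 on the minus strand. Lep held 1 C/EBP match at -55 and Nampt 1 half-site at -151 from the RefSeq start, and Retn, Cfd and Apln held none of the 4 motifs. Of 32544 promoters in the table, 33.8% held a CCAAT match, 9.58% a C/EBP match, 14% a half-site and 12.3% a TATA match, so a match is common and is a description of letters only. The windows differed in CpG dinucleotides. Adipoq held 0, and Retn and Cfd 2 each, against a median of 6 over all promoters, of which 28.8% held 2 or fewer. Apln held 12, Lep 16 and Nampt 27. The 3 members with few CpGs were the 3 that were at the floor at day 0 and well covered from day 7, while Lep had a CpG-rich window and never more than 5 reads in a library. Rarres2 has no window here, and a link between CpGs and expression was not tested.

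In GENCODE M21 (GRCm38) the genes lie at chr16:23146536-23158028 (Adipoq, ENSMUSG00000022878, plus strand), chr8:3655770-3660110 (Retn, ENSMUSG00000012705, plus), chr10:79890853-79892655 (Cfd, ENSMUSG00000061780, plus), chr6:29060220-29073877 (Lep, ENSMUSG00000059201, plus), chr6:48569696-48572789 (Rarres2, ENSMUSG00000009281, minus), chrX:48025146-48034853 (Apln, ENSMUSG00000037010, minus) and chr12:32819545-32853349 (Nampt, ENSMUSG00000020572, plus). All are protein-coding. The Nampt start in RefSeq lies 790 bases downstream of the GENCODE gene start, so its printed window falls inside the gene as placed here. For the other 5 matched members both starts differ by at most 1 base. Rarres2 shares 892 exon bases, 33.6% of its exons, with Lrrc61 on the opposite strand. Whether the counting used strand is not given in the sources used here, so reads from the shared stretch cannot be told apart. At day 0 Lrrc61 had means of 651 normalized reads in control and 559 in knockdown, above those of Rarres2 (225 and 159.6), with arms that overlapped (632 to 671 and 479 to 656) and the knockdown mean also the lower. At day 11 it had 655 and 751, below Rarres2. The part of the shared stretch in the Rarres2 level and in its day 0 difference was not tested.

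The deposited values are log2 values of a regularized form, in which each gene is drawn towards its own mean, most strongly where reads are few. Whole reads could be rebuilt from them, and of the 224 member values 215 lay no more than 0.1 from a whole number. Below, a normalized read is a rebuilt read divided by the library's size factor, log2 changes are limma's on the deposited values unless voom is named, and a gene is called at an adjusted p under 0.05 (Benjamini-Hochberg over all genes tested). A group is at the floor when each of its libraries had 3 reads or fewer. Libraries held 22280321 to 31073716 reads in genes, and at day 11 the knockdown libraries (22839425 to 25511818) were all shallower than the controls (26486034 to 31073716). 

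Zbtb9, the targeted gene, had few reads. Its mean ran from 10.3 to 16.8 normalized reads over the 4 days in control and from 5.20 to 8.76 in knockdown, and the groups did not overlap at days 0 and 7. At day 11 shRNA 1 replicate 2 had 19.3, within the control range of 12.1 to 20. Of the Zbtb9 exon bases 84.4% are shared with Ggnbp1 on the same strand, so its level is uncertain. Leaving that library out, limma still called all 6 tested members at day 11.

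At the floor at day 0 were Adipoq, Retn, Cfd and Lep. Retn and Cfd had 0 reads in all 8 day 0 libraries. Adipoq had 0, 1, 0 and 3 reads in the knockdown libraries and 0, 0, 0 and 1 in the controls. Adipoq, Retn and Cfd still passed the filter on deposited values at day 0, since the transform lifts a gene with 0 reads towards its mean, so their day 0 differences carry no information and are not used. From day 3 on none of the 3 was at the floor.

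Lep was at or near the floor throughout. It had 0 reads in 21 of 32 libraries, 28 reads in all and never more than 5 in a library, and it was at the floor in 5 of the 8 groups of day and arm. At day 7 the knockdown libraries had 4, 5, 2 and 0 reads and the controls 5, 0, 0 and 1, so the groups overlapped. At day 11 they had 0, 5, 1 and 0 against 1, 0, 0 and 0, and again overlapped. Lep did not pass the filter. A two-sided exact permutation test of normalized reads gave p = 0.400 at day 7 and p = 0.429 at day 11 (4 libraries against 4, where the smallest possible p is 0.0286). A difference between arms was not detectable at this depth.

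**Figure D1:**
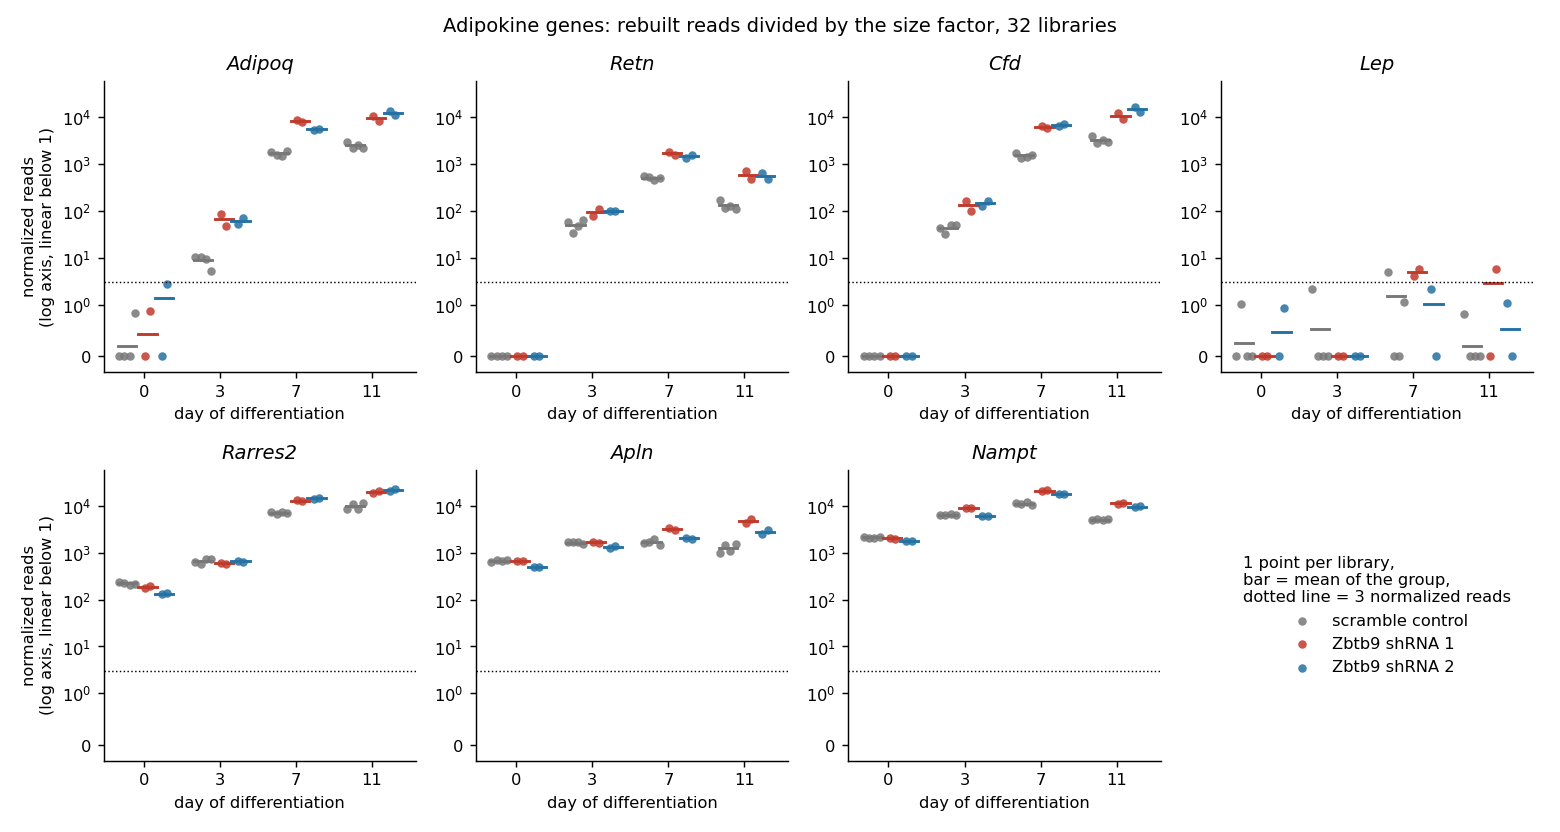
Normalized reads (y axis, log scale, linear below 1) of each member in every library against the day (x axis), with 1 point per library and a bar at each group's mean. Adipoq, Retn and Cfd start at 0 to 2.78 normalized reads, Lep stays at 5.80 or fewer, and Rarres2, Apln and Nampt are covered on every day.

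Adiponectin had the largest rise of the members between days 3 and 7. In control it had 10.5, 10.6, 9.42 and 5.32 normalized reads at day 3, then 1825, 1606, 1530.3 and 1873 at day 7, and 2927, 2266, 2632 and 2256 at day 11. The knockdown libraries (shRNA 1 replicates 1 and 2, then shRNA 2 replicates 1 and 2) had 85.2, 46.6, 53.0 and 69.2 at day 3, then 8746, 7936, 5319 and 5727 at day 7, and 10981, 8521, 13706 and 11028 at day 11. Every knockdown library lay above every control on these days. Knockdown means were 7.09-fold higher at day 3, 4.06-fold at day 7 and 4.39-fold at day 11. The log2 change was 1.37 (SE 0.14, adjusted p 1.29e-05), 1.93 (SE 0.16, adjusted p 3.06e-05) and 2.06 (SE 0.14, adjusted p 8.77e-06) by limma, in order of day. At day 3 the deposited values understate the difference, and voom on rebuilt reads gave 2.75 (adjusted p 5.77e-05).

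Adipsin ran close to adiponectin. Control libraries had 44.2, 32.8, 50.2 and 50 normalized reads at day 3, 1773, 1384, 1454 and 1539 at day 7, and 3957, 2781, 3214 and 2937 at day 11. Knockdown libraries had 167, 98.4, 126 and 166 at day 3, 6595, 6019.6, 6585 and 7334 at day 7, and 12160.2, 9078, 16336 and 13231 at day 11. The arms did not overlap on any of the 3 days. The folds were 3.14, 4.31 and 3.94 in order of day, and the limma log2 changes 1.25 (SE 0.15, adjusted p 4.32e-05), 2.05 (SE 0.07, adjusted p 5.68e-11) and 1.90 (SE 0.18, adjusted p 0.000106). Voom gave 1.62 at day 3 (adjusted p 0.00017).

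Resistin rose and then fell. Control libraries had 58.9, 33.8, 47.1 and 64.8 normalized reads at day 3, 551, 529, 453 and 498 at day 7, and 174, 116, 129 and 111 at day 11. Knockdown libraries had 78.4, 108, 98.9 and 97.7, then 1859, 1586, 1376 and 1607, and then 722, 472, 654 and 487. The arms were apart on all 3 days, and the day 11 knockdown level was near the day 7 control level. The folds were 1.87, 3.16 and 4.41 in order of day, and the limma log2 changes 0.73 (SE 0.15, adjusted p 0.00212), 1.55 (SE 0.08, adjusted p 1.58e-09) and 1.96 (SE 0.16, adjusted p 7.46e-06). For shRNA 1 alone the day 3 change of 0.69 (adjusted p 0.000719) fell to 0.50 (adjusted p 0.0643) by limma without shRNA 1 replicate 2.

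Chemerin was on from day 0. Control libraries had 243, 231, 205 and 221 normalized reads at day 0 and 645, 568, 754 and 756 at day 3, and knockdown libraries had 174, 197, 131 and 136 at day 0 and 620.1, 581, 672 and 641 at day 3. At day 0 every knockdown library lay below every control, and at day 3 the arms overlapped. The log2 change was -0.44 (SE 0.12, adjusted p 0.0674) at day 0 and -0.10 (SE 0.08, adjusted p 0.412) at day 3 by limma, neither called. At day 0 it passed the threshold without shRNA 1 replicate 2 (-0.54, adjusted p 0.0340), when the shRNAs were separate groups (adjusted p 0.000122) and when all 32 libraries shared 1 fit (adjusted p 0.00888). With shRNA 1 alone it was called lower at day 3 without control replicate 2 (-0.24, adjusted p 0.0159).

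From day 7 chemerin was higher in knockdown. At day 7 control libraries had 7569, 6829, 7321 and 7081 normalized reads and knockdown libraries 13261, 12981, 14272 and 14977. At day 11 they had 8826, 11048, 8662 and 11867 against 19295, 21229, 20655 and 23484. The arms were apart on both days. The folds were 1.93 and 2.1, and the limma log2 changes 0.92 (SE 0.06, adjusted p 4.51e-09) and 1.05 (SE 0.10, adjusted p 2.66e-05).

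Apelin was on from day 0, and its level differed between the 2 shRNAs. Control libraries had 652, 708, 664 and 719 normalized reads at day 0, 1727, 1670.2, 1697 and 1557 at day 3, 1593, 1741, 1942 and 1455 at day 7 and 1014, 1497, 1111 and 1519 at day 11. Knockdown libraries had 664, 656, 499 and 497 at day 0, 1699, 1656, 1245 and 1434 at day 3, 3483, 3072, 2094 and 1983 at day 7 and 4369, 5231, 2560.2 and 3162 at day 11. The shRNA 2 libraries were below all controls at days 0 and 3, and at days 7 and 11 the highest control lay under the lowest knockdown library. The limma log2 changes of both shRNAs together were -0.24 (adjusted p 0.201), -0.14 (adjusted p 0.222), 0.60 (SE 0.19, adjusted p 0.0353) and 1.48 (SE 0.24, adjusted p 0.00287) in order of day. At day 7 Apln missed the threshold without shRNA 1 replicate 2 (adjusted p 0.105), without control replicate 1 (0.0754), 2 (0.0576) or 4 (0.0770). At day 11 the fold was 2.98.

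Nampt was the most abundant member per length at day 0 and was on throughout. Control libraries had 2241, 2076, 2130.0 and 2221 normalized reads at day 0, 6490.4, 6495, 6714 and 6455 at day 3, 11697, 11288, 11979 and 10481 at day 7 and 5079, 5212, 5016 and 5223 at day 11. Knockdown libraries had 2115, 1994, 1764 and 1786 at day 0, 9238, 9082, 6267 and 6088 at day 3, 20848, 21903, 17894 and 17852 at day 7 and 11259.5, 11618, 9490.0 and 10017 at day 11. At day 3 the 2 shRNA 1 libraries lay above all controls and the 2 shRNA 2 libraries below all of them. The limma log2 changes of both shRNAs in 1 group were -0.18 (adjusted p 0.145) at day 0, 0.20 (adjusted p 0.368) at day 3, 0.76 (SE 0.07, adjusted p 2.87e-07) at day 7 and 1.01 (SE 0.07, adjusted p 1.09e-06) at day 11. With the shRNAs as separate groups limma called Nampt at day 0 (-0.18, adjusted p 0.00056) and day 3 (0.20, adjusted p 4.56e-06).

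Counted over members, none was called at day 0, where limma called 3.25% of 13216 genes and where 3 of the 6 tested members were at the floor. The 3 members above it, Rarres2, Apln and Nampt, had unadjusted p of 0.00278, 0.0301 and 0.0143, all 3 under 0.05, as were 19.7% of genes, and voom called none of them. With the shRNAs fitted as separate groups limma called 3 members at day 0, all lower, where 14.3% of genes were, and in 1 fit of all libraries it called 1 lower, where 2.73% were. At day 3 limma called 3 of 6 members higher, where 14.6% of 13139 genes were called higher. With the shRNAs as separate groups it called 5, adding Apln lower and Nampt higher, where 21.4% of genes were called higher and 19.0% lower. At day 7 limma called all 6 tested members higher, where 24.9% of 13299 genes were, and at day 11 all 6 again, where 16.8% of 13281 genes were. Groups that do not overlap are common in these data: at days 3, 7 and 11 all knockdown libraries lay above all controls for 15.5%, 23.3% and 17% of genes, and at day 0 all lay below for 7.98%. The median log2 change of all genes tested was -0.01, 0.00, 0.01 and -0.01 in order of day. Among genes ordered by log2 change, Cfd had 36 genes above it at day 7, Adipoq 47, Retn 94, Rarres2 326, Nampt 487 and Apln 810. At day 11 Adipoq had 25 above it, Retn 33, Cfd 37, Apln 84, Rarres2 210 and Nampt 226.

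**Figure D2:**
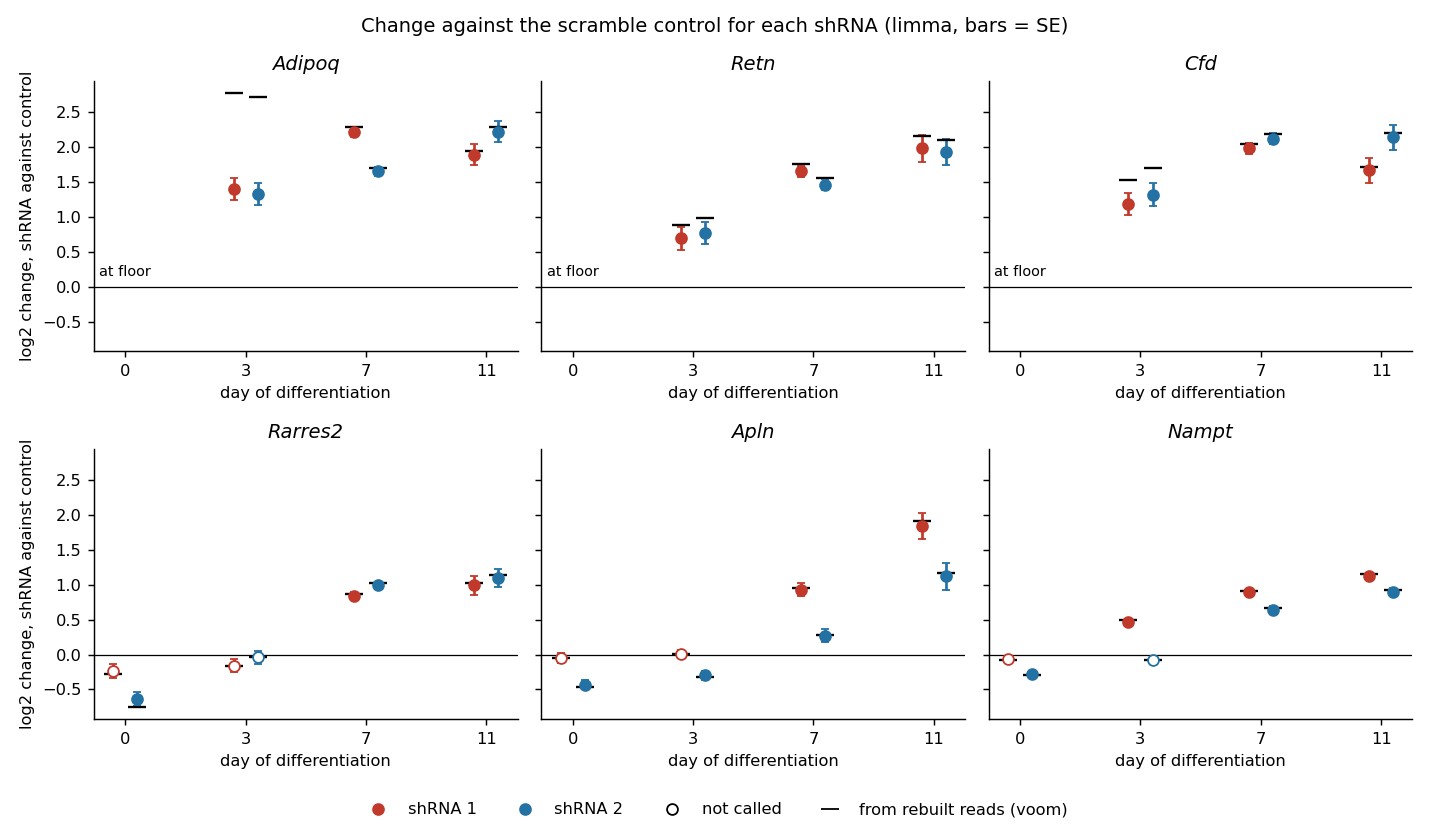
Log2 change against control for shRNA 1 and shRNA 2 (y axis, limma on deposited values, bars are SE) by day (x axis), filled where called, with black dashes for voom on rebuilt reads. Adipoq, Retn and Cfd are higher from day 3 with both shRNAs, the dashes stand well above the points for Adipoq at day 3 (2.77 and 2.72 against 1.40 and 1.33), and Apln is lower for shRNA 2 than for shRNA 1 on every day.

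Each shRNA was also set against the same 4 controls, which the 2 comparisons therefore share. At day 0 shRNA 2 libraries were lower in Rarres2 (-0.64, adjusted p 2.19e-05), Apln (-0.43, adjusted p 1.49e-05) and Nampt (-0.28, adjusted p 4.14e-05) by limma, where 10.2% of genes were called lower. For shRNA 1 the same genes had -0.24 (adjusted p 0.0583), -0.05 (adjusted p 0.590) and -0.07 (adjusted p 0.213), none called, where 34.7% of genes were. Rarres2 with shRNA 1 was called without trend and robust fitting (adjusted p 0.0385) and without control replicate 3 (-0.28, adjusted p 0.0376). Tested directly, shRNA 2 was lower than shRNA 1 at day 0 in Rarres2 (-0.40, adjusted p 0.00728), Apln (-0.38, adjusted p 0.00019) and Nampt (-0.20, adjusted p 0.00274), where 16.4% of genes were called lower. Rarres2 lost that call without shRNA 1 replicate 2 (adjusted p 0.0942) or shRNA 2 replicate 1 (0.0540), Nampt without shRNA 1 replicate 1 (0.0663), and Apln in 1 fit of all libraries (0.0624).

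At day 3 both shRNAs had higher Adipoq (1.40 and 1.33), Retn (0.69 and 0.77) and Cfd (1.18 and 1.32), where limma called 20.6% of genes higher for shRNA 1 and 16.8% for shRNA 2, and no difference between the shRNAs was called in these 3. Nampt was higher with shRNA 1 (0.47, adjusted p 3.4e-12) and not called with shRNA 2 (-0.08, adjusted p 0.122), a difference of -0.55 (SE 0.04, adjusted p 1.01e-11) by limma. Apln was lower with shRNA 2 (-0.30, adjusted p 0.000108, 14.5% of genes called lower) and 0.01 with shRNA 1, a difference of -0.31 (SE 0.07, adjusted p 0.000672). In 1 fit of all libraries both Apln calls were lost (adjusted p 0.0904 and 0.171). At day 3 8.94% of genes were called lower with shRNA 2 than with shRNA 1.

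At days 7 and 11 each shRNA alone had all 6 tested members called higher by limma. For shRNA 1 27.7% of genes were called higher at day 7 and 21.4% at day 11, and for shRNA 2 24% and 17.4%. The weakest was Apln with shRNA 2 at day 7 (0.27, SE 0.09, adjusted p 0.0168), which was not called without shRNA 2 replicate 1 (adjusted p 0.159) or 2 (0.0746), in 1 fit of all libraries (0.0889) or without trend and robust fitting (0.0767). Against shRNA 1, shRNA 2 at day 7 was lower in Adipoq (-0.58, SE 0.08, adjusted p 3.14e-05), Apln (-0.66, SE 0.10, adjusted p 0.000313) and Nampt (-0.25, SE 0.06, adjusted p 0.00482), where 8.90% of genes were called lower. The Nampt call was lost without shRNA 1 replicate 2 (adjusted p 0.0911) and without trend and robust fitting (0.0793). Rarres2 had 0.15 (adjusted p 0.0745) and was called at equal totals (0.19, adjusted p 0.0160).

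At day 11 Nampt was the 1 member called between the shRNAs (-0.22, SE 0.06, adjusted p 0.0112), where 10.4% of genes were called lower. It was not called without shRNA 1 replicate 2 (adjusted p 0.0675) or shRNA 2 replicate 1 (0.104). Apln differed by -0.72 (SE 0.22, adjusted p 0.0641) and passed the threshold without control replicate 1 (0.0156), 2 (0.0460) or 4 (0.0423), in 1 fit of all libraries (0.000835), without a filter (0.0196) and without trend and robust fitting (0.0480). Adipoq had 0.34 (adjusted p 0.207) and Cfd 0.47 (adjusted p 0.159), neither called. Cfd was called without control replicate 1 (adjusted p 0.0323).

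In control cells the members rose during differentiation. All 6 tested members were called higher at day 3 than at day 0, where 38.3% of 13421 genes were called higher by limma. Against the floor of 3 reads per library, the day 3 mean was at least 3.30-fold higher for Adipoq, 18.8-fold for Retn and 16.3-fold for Cfd, and Rarres2 rose 3.03-fold, Apln 2.42-fold and Nampt 3.02-fold. Setting all libraries to equal totals moves every gene by -0.13 in this step and by -0.16 in knockdown, less than any of these log2 changes. From day 3 to day 7 control cells had 191-fold more Adipoq, 34.7-fold more Cfd, 10.6-fold more Rarres2, 9.92-fold more Retn and 1.74-fold more Nampt, all called (37.6% of genes called higher), while Apln was at 1.01-fold (limma log2 change 0.01, adjusted p 0.945).

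From day 7 to day 11, after insulin was withdrawn, the members in control divided. Adipoq (0.54, adjusted p 6.51e-06), Cfd (1.03, adjusted p 9.64e-11) and Rarres2 (0.46, adjusted p 0.00198) rose by limma, where 28.9% of genes were called higher. Retn (-1.79, adjusted p 5.9e-14), Nampt (-1.11, adjusted p 2.71e-23) and Apln (-0.39, adjusted p 0.0121) fell, where 26.1% were called lower. The Apln call was lost in 1 fit of all libraries (adjusted p 0.0868).

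Knockdown cells had the same 6 rises from day 0 to day 3 (35.2% of 13456 genes called higher), and 6 rises from day 3 to day 7 (34.8%), Apln included with 0.75 (adjusted p 0.00596) by limma. From day 7 to day 11 Adipoq (0.66), Cfd (0.88) and Rarres2 (0.59) rose, where 22.8% of genes did, and Retn (-1.39) and Nampt (-0.86) fell, where 23.1% did. Adipoq lost its call on log2 of rebuilt reads plus 1 (0.69, adjusted p 0.132). Apln had 0.49 (adjusted p 0.0717) and was called without shRNA 1 day 7 replicate 1 (adjusted p 0.0306) or shRNA 2 day 11 replicate 1 (0.0164), at equal totals (0.53, adjusted p 0.0487) and in 1 fit of all libraries (0.0239).

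Whether the knockdown difference itself changed between days was tested as an interaction by limma over all 32 libraries. Between days 3 and 7 it moved upward for all 6 members on the deposited values, as it did for 12.9% of 13571 genes. On rebuilt reads with voom, the upward move was called for Rarres2 (1.05, adjusted p 2.02e-06) and Nampt (0.58, adjusted p 0.00324), where it was for 10.8% of genes. It was not called for Retn (0.72, adjusted p 0.0929), Apln (0.77, adjusted p 0.0516) and Cfd (0.49, adjusted p 0.510), and for Adipoq it had the opposite sign (-0.75, adjusted p 0.611, against 0.57, adjusted p 0.0336, on the deposited values). In normalized reads the Adipoq fold was 7.09 at day 3 and 4.06 at day 7, so its sign depends on the scale. On the deposited values leaving out single libraries removed the Adipoq call in 9 of 16 cases (lowest log2 value 0.45) and the Apln call in 9 of 16 (lowest 0.61). The Apln call was also lost without a filter (0.74, adjusted p 0.0556), and the Cfd call on log2 of rebuilt reads plus 1 (0.49, adjusted p 0.111).

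Between days 0 and 3 the interaction was called for Adipoq, Retn and Cfd, where it was called higher for 3.69% of genes, but all 3 were at the floor at day 0, and voom gave adjusted p from 0.701 to 0.762. Retn was also not called without control day 3 replicate 2 (0.60, adjusted p 0.0514). Of the members above the floor, Nampt (0.37, adjusted p 0.101), Rarres2 (0.34, adjusted p 0.157) and Apln (0.10, adjusted p 0.885) were not called. Nampt was called with 12 groups and the mean of both shRNAs (adjusted p 3.69e-07) and without shRNA 2 day 3 replicate 1 (0.0325) or 2 (0.0192), and Rarres2 without shRNA 1 day 0 replicate 2 (0.44, adjusted p 0.0490). Between days 7 and 11 only Apln was called (0.88, SE 0.26, adjusted p 0.0237, with 5.05% of genes called higher), and voom gave 0.93 (adjusted p 0.0269). It was no longer called without shRNA 2 day 7 replicate 2 (adjusted p 0.0539), control day 7 replicate 3 (0.0527), shRNA 1 day 11 replicate 2 (0.0520), control day 11 replicate 1 (0.0577) or control day 11 replicate 3 (0.0521). The other members had -0.15 to 0.40 and were not called, and Nampt (0.25, adjusted p 0.250) was called with 12 groups and the mean of both shRNAs (adjusted p 0.0002).

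Compared per length, in reads per kb of exon per 1000000 reads, the order of the members changed with time. Exon length counts each base that lies in an exon of any GENCODE transcript of the gene, 2656 for Rarres2 and 922 for Cfd. The Rarres2 length includes the 892 bases shared with Lrrc61. The order between genes depends on this choice of length. In control at day 0 Nampt (17.4 ± 0.686) stood above Apln (8.85 ± 0.373) and Rarres2 (3.44 ± 0.258; SD, n = 4), with the other 4 at the floor. At day 7 the order was Rarres2 (105 ± 4.31), Nampt (87.0 ± 4.40), Cfd (64.5 ± 7.35), Adipoq (47.9 ± 5.04), Apln (20.7 ± 2.35), Retn (12.5 ± 1.18) and Lep, and each neighbour was separate in all libraries. At day 11 Rarres2 (149 ± 22.3) and Cfd (137 ± 23.3) overlapped, and Adipoq (71.8 ± 9.81), Nampt (39.9 ± 0.400), Apln (16 ± 3.10) and Retn (3.30 ± 0.742) followed, each apart from the next.

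In knockdown cells Cfd had the highest mean per length at days 7 and 11. At day 7 it reached 270.1 ± 24.1 on that scale, above Rarres2 (196 ± 15.7), Adipoq (188 ± 42.1) and Nampt (146 ± 13.3; SD, n = 4), and of these the neighbours Rarres2 and Adipoq, and Adipoq and Nampt, overlapped. At day 11 Cfd (531 ± 126), Adipoq (309 ± 59.7) and Rarres2 (307 ± 25.9) overlapped as neighbours and stood above Nampt (80.8 ± 7.49). In normalized reads, which are not divided by length, knockdown Rarres2 was above Cfd. The means were 13873 against 6634 at day 7 and 21166 against 12701 at day 11. Per length, Nampt, Apln and Rarres2 held the first 3 places in both arms at days 0 and 3.

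**Figure D3:**
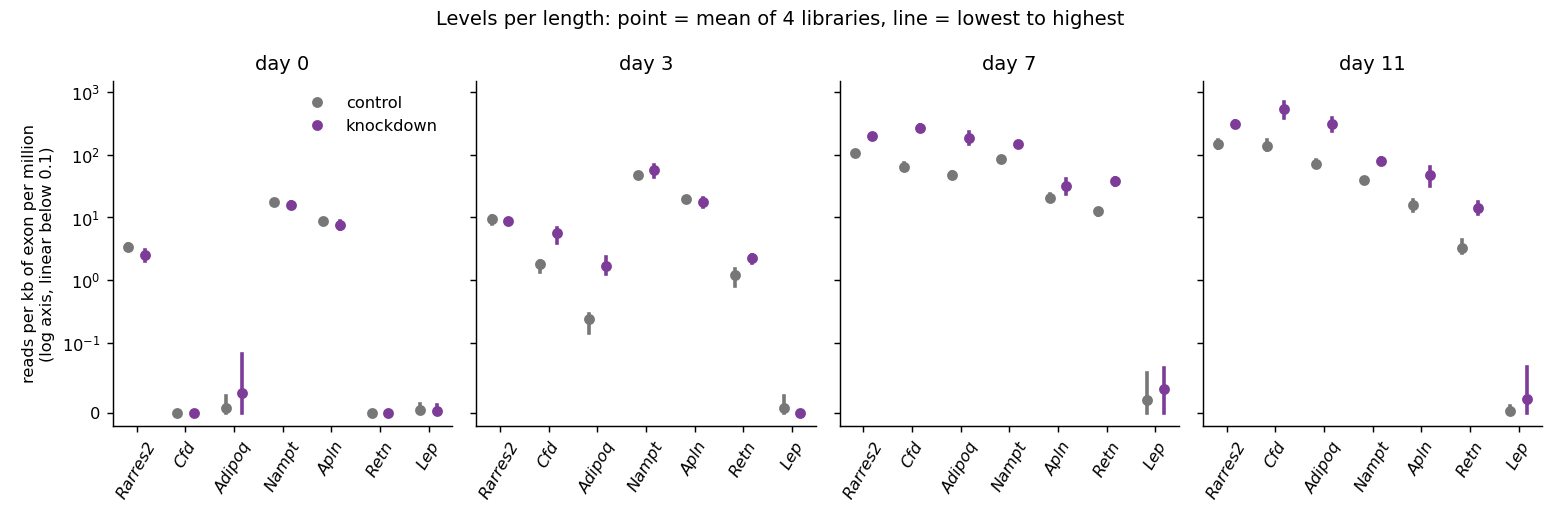
Level per length (y axis, reads per kb of exon per 1000000 reads, log scale, linear below 0.1) of the 7 members in control and knockdown at each day, with points at the mean of 4 libraries and lines from the lowest to the highest. Cfd and Adipoq are at the bottom at day 0. At day 11 Cfd is near Rarres2 in control and at 531 in knockdown, and Adipoq is below Rarres2 in control (71.8 against 149) and beside it in knockdown (309 against 307).

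Over the 32 libraries deposited log2 values of Adipoq, Cfd and Rarres2 had Pearson r of 0.98 to 0.99 with each other, Retn and Nampt had 0.95, and Adipoq and Apln 0.75. These are descriptions over libraries that share days and arms, with no p. Among 11947 genes, those most like Adipoq included Cfd (0.9926), Gpr35 (0.9865), Lgals12 (0.9854) and Gipr (0.9845). Those most like Retn were Cidec (0.9892), Prlr (0.9843), Ndufv3 (0.9817), P4hb (0.9793) and Mtus1 (0.9785), and those most like Cfd included, after Adipoq, Rarres2 (0.9887), Dapk1 (0.9885) and Fam162a (0.9861). Cda (0.9902), P4ha1 (0.9878), Pgk1 (0.9868) and Eno1b (0.9847) came beside Cfd for Rarres2. Higd1a (0.9829), Naaa (0.9823), Clybl (0.9816), Fdx1 (0.9811) and Mt2 (0.9802) were nearest to Nampt, and Jmjd6 (0.9637), Raph1 (0.9452), Gid4 (0.9446), Plod1 (0.9443) and Pdxp (0.9421) to Apln.

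For the lists that follow, limma called 0.817% of all genes higher and 2.44% lower at day 0, 12.1% lower at day 3, 22.6% lower at day 7 and 16.2% lower at day 11, beside the shares higher given above.

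The receptors and the proteins that mature adiponectin moved in both directions. Of 16 list genes 13 were in the table and 9 were tested. At day 3 limma called 4 higher and 3 lower, at day 7 3 and 2, and at day 11 3 and 1, with list medians of -0.05, -0.01 and 0.03 against 0.00, 0.01 and -0.01 for all genes. Adipor2, an adiponectin receptor, went from 9056 ± 399 normalized reads in control to 22209 ± 1087 in knockdown at day 7 (1.26, SE 0.05, adjusted p 1.12e-10) and from 10214 ± 873 to 25416 ± 2367 at day 11 (1.28, adjusted p 8.98e-07; SD, n = 4, limma). Adipor1, the other receptor, had 0.23 (adjusted p 0.00173) and 0.29 (adjusted p 0.000502) on the same days. Cdh13, which codes for T-cadherin, was lower at day 7 (-0.68, adjusted p 2.48e-07) and had -0.08 at day 11 (adjusted p 0.728). Ero1a, an endoplasmic reticulum oxidase that takes part in adiponectin release, was higher on both days (1.23, adjusted p 0.000637, and 1.47, adjusted p 0.000834). The leptin receptor Lepr and the chemerin receptor Cmklr1 were covered by few reads, with means of at most 7.20 and 13.9 normalized reads in any group, and were not tested.

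The complement genes around adipsin were not called higher in the comparison of both shRNAs with control. Of 12 list genes 10 were in the table and 6 were tested. None was called higher, and 1, 3, 4 and 1 were called lower by limma at days 0, 3, 7 and 11, with a list median of -0.36 at day 7 and -0.21 at day 11. At day 11 shRNA 1 alone had 0 called higher and 4 lower (median -0.77), where 22.2% of genes were called lower, and shRNA 2 alone had 2 higher and 2 lower (median -0.01), where 19.4% were called lower. C3, the component the pathway acts on, was lower at day 0 (-0.69, adjusted p 0.0286) and day 7 (-0.29, adjusted p 0.00160). At day 3 it had -0.21 (adjusted p 0.444) and at day 11 -0.15 (adjusted p 0.700), with arms that overlapped. Masp1, a gene of lectin pathway proteases that also encodes the activator of pro-adipsin, had 3283 ± 139 normalized reads in control and 1337 ± 186 in knockdown at day 11 (-1.25, SE 0.09, adjusted p 2.2e-06; SD, n = 4).

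Among the enzymes that make and use NAD, 12 of 13 list genes were tested. Limma called 0 higher and 1 lower at day 0, 0 and 3 at day 3, 5 and 3 at day 7, and 3 and 4 at day 11, with medians of -0.18, -0.15, 0.08 and -0.03. Nadsyn1 (0.56, adjusted p 3.65e-05) and the mitochondrial deacylase Sirt3 (0.46, adjusted p 0.00117) were higher at day 7. Nmnat2, which turns the product of Nampt into NAD, was lower at day 7 (-0.52, adjusted p 4.17e-05) and day 11 (-0.53, adjusted p 0.00815). Nnmt, which methylates nicotinamide, was lower at day 0 (-0.43, adjusted p 0.0494), day 3 (-0.60, adjusted p 0.000149) and day 11 (-0.50, adjusted p 0.00513), and Nmrk1 was higher at day 11 (0.41, adjusted p 0.0101).

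Other secreted factors of fat cells moved in both directions at days 7 and 11. Of 38 list genes 30 were in the table. Limma called 0 of 22 tested higher and 6 lower at day 0 (median -0.14), and 1 higher and 6 lower at day 3 (median -0.08). At day 7 limma called 13 of 23 tested higher and 7 lower (median 0.23), and at day 11 7 higher and 8 lower (median 0.26). The chemokine Ccl2 went from 2143 ± 255 normalized reads in control to 752 ± 213 in knockdown at day 7 (-1.48, SE 0.19, adjusted p 0.000433). Adm, a vasodilator peptide, went from 979 ± 107 to 3477 ± 366 at day 11 (1.75, SE 0.09, adjusted p 1.95e-07; SD, n = 4). The acute-phase gene Lcn2 was lower on all 4 days (-0.73, -0.73, -0.48 and -0.63). Saa3, another, was lower at day 0 (-0.71) and day 11 (-1.25, adjusted p 0.0149), with -0.79 (adjusted p 0.0537) and -0.74 (adjusted p 0.213) between them. C1qtnf12, an adiponectin paralog, was higher at day 7 (1.15, adjusted p 2.21e-05). Retnla, a resistin relative with a mean of 73.2 normalized reads in knockdown and 23.5 in control at day 7, was called (1.24, adjusted p 0.0186) although its arms overlapped.

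All 19 listed regulators of adipokine transcription were tested. Limma called 0 higher and 2 lower at day 0 (median -0.09), 6 higher and 1 lower at day 3, 7 and 5 at day 7, and 9 and 2 at day 11, with medians of 0.03, 0.15 and 0.19 on these 3 days. Cebpa was higher on each of them, by 0.88 (adjusted p 8.06e-06), 1.99 (adjusted p 2.97e-10) and 1.63 (adjusted p 7.69e-07). Pparg had 0.37, 1.17 and 1.15, and the glucocorticoid-induced factor Klf15 had 2.05 (adjusted p 2.11e-09) and 2.04 (adjusted p 1.41e-06) on the last 2 of them. At day 0 Pparg had -0.04 (adjusted p 0.705) and Cebpa 0.18 (adjusted p 0.339), while Klf4 (-0.27, adjusted p 0.0449) and Atf3 (-0.49, adjusted p 0.0431) were lower. Klf4 was lower again at day 7 (-0.39), and Atf3 was higher at day 3 (0.85) and day 11 (0.31).

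**Figure D4:**
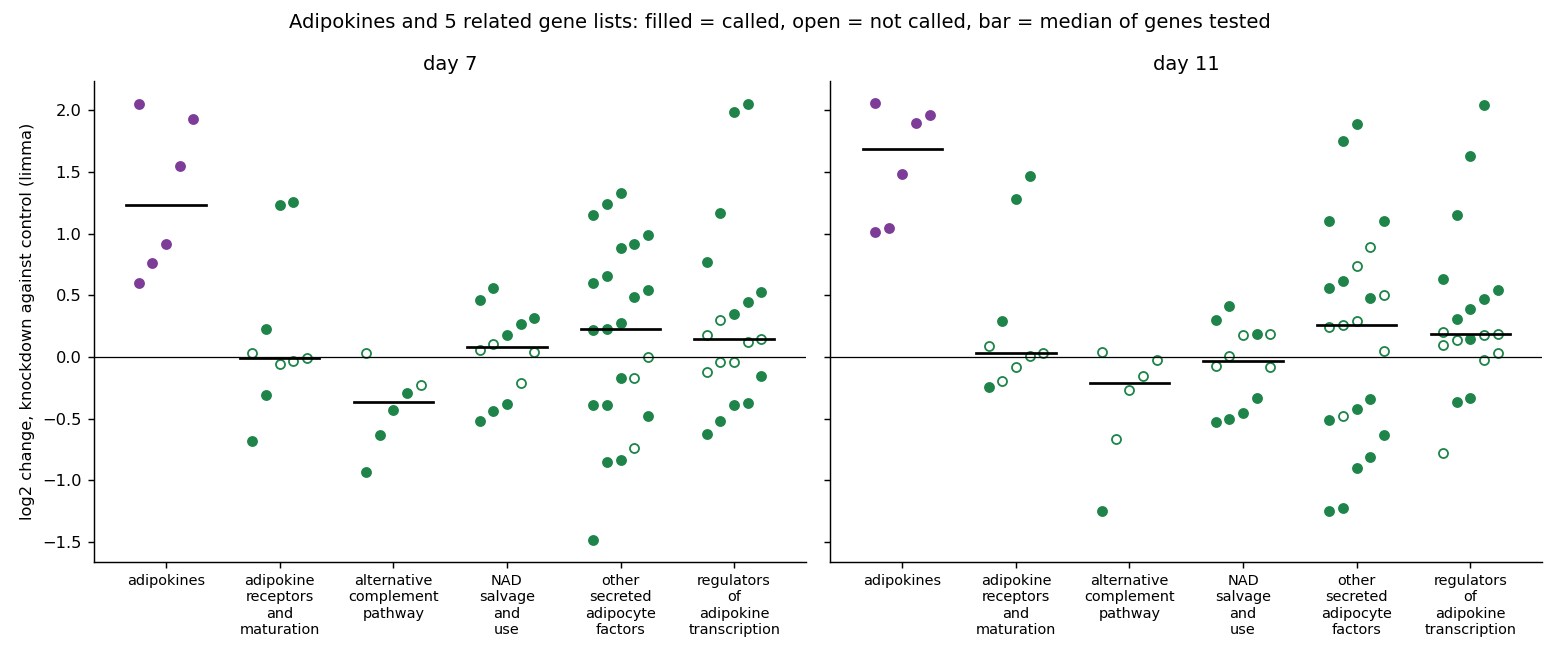
Log2 change of knockdown against control (y axis, limma) for the tested adipokines and the tested genes of 5 related lists (x axis) at days 7 and 11, 1 point per gene, filled where called, with a bar at the median. All 6 adipokines lie above 0 on both days, while each list holds genes on both sides of 0, and no called gene of the complement list lies above 0 in this comparison.

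Markers of the cell types a culture could hold were read beside these results. All 8 adipocyte markers, of which Pparg is also on the regulator list, were called higher in knockdown by limma at days 3, 7 and 11 (medians 0.84, 2.00 and 1.74). Their summed level at day 11 was 52154 to 60469 normalized reads in control and 97918 to 126579 in knockdown. At day 7 the sums were 48759 to 52523 and 133191 to 208286. The arms were apart in this sum at day 0 too (19734 to 20287 and 21906 to 23461). Of 6 preadipocyte and fibroblast markers, 5 were called lower at day 7 and 4 at day 11 (medians -0.54 and -0.47). Their sum was lower in knockdown at day 0 (292329 to 333795 against 356124 to 371098) and at day 7. The arms overlapped in it at day 3 and at day 11 (230463 to 318465 against 300634 to 345490.3). In bulk samples, more cells of a type and more RNA per cell cannot be told apart, and the part of cell composition in the adipokine differences was not tested. Of the macrophage and leukocyte list, 5 of 6 were in the table and 3 were tested. Limma called 1 higher and 1 lower at day 7 and 1 higher at day 11. Cd68 was higher on both days (0.87 and 0.86), with arms that overlapped at day 11, and Lyz2 went from 27.9 normalized reads in control to 7.67 in knockdown at day 7 (-0.75, adjusted p 0.00167). Itgam and Ptprc did not pass the filter, and the list summed to 209 to 308 normalized reads in control and 313 to 647 in knockdown at day 11. The 4 endothelial markers summed to at most 48.7 normalized reads in any library. Of the myogenic list 2 of 4 were in the table, and Des was higher at days 7 and 11 (0.75 and 0.77) while Pax7 did not pass the filter.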

How the data were processed

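RNA came from an RNeasy kit and went into TruSeq RNA libraries, per the labels' protocols. TopHat2 2.1.0, Bowtie2 2.2.6, SAMtools 1.3.1 and HTSeq 0.6.1 are named, without their settings, per the submitters' processing notes. The genome build and the use of strand are not given in the sources used here. The authors deposited 1 table of log2 values for 20560 genes (28 without a symbol), from -1.56 to 17.99. The values fit a regularized log, which no header or label names. Inverting that form gave 95.8% of all values within 0.1 of a whole read (20% by chance), and 99.1% for genes with a mean of at least 1 read.

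The 7 members and all gene lists were chosen with earlier results of these data known. Groups were taken from sample titles. The main fits of knockdown against control, of the knockdown time course and of the interactions put both shRNAs in 1 knockdown group. A difference between the shRNAs thus adds to the spread within that group, and to its SDs with n = 4. Limma 3.58.1 (R 4.3.3) (trend and robust options on) was fitted to the deposited values over all genes with 2 to the power of the value of at least 10 in at least 4 libraries, separately per day, per time course, and over 32 libraries for interactions (25 comparisons in all), with Benjamini-Hochberg adjustment. Leaving out 1 library, other filters, equal totals, log2 of rebuilt reads plus 1, voom on rebuilt reads, a replicate block and other groupings of the shRNAs were alternatives. The scripts were tested on simulated data. Depth was 22280321 to 31073716 rebuilt reads. Between replicates, chi-square per degree of freedom was 3.02 to 11.6 over 32 pairs, above sampling noise. Positions, exon lengths and overlaps come from GENCODE M21, where 20532 IDs matched, and promoters from RefSeq (GRCm38.p6), and either may differ from the authors' build.

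Genes named are the members, Adipor1, Adipor2, Cdh13, Lepr, Cmklr1, Pparg and Cebpa, up to 3 called genes per list and day with the largest change and a mean of at least 50, and the 5 genes most correlated with each member. Some genes that this rule names are not reported here. Lrrc61, Ggnbp1, Itgam, Ptprc, Cd68, Lyz2, Des and Pax7 were named after their values were seen.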

Additional observations from a re-analysis of the deposited data

Results flagged for a closer look

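One library stood apart within its group. Nampt at day 3 in control replicate 3 was the highest of 4, and its gap to the next library was 0.844 of the group's range, above the critical value of 0.829 for 4 samples. Of 42 groups examined this was the 1 flagged, and chance flags about 1 in 20 groups.

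In 10 results the interaction of knockdown with day passed limma's threshold on the deposited values. Between days 0 and 3 the change was 1.33 for Adipoq, 0.73 for Retn and 1.25 for Cfd, all at the floor at day 0, so these are not used as differences. Between days 3 and 7 it was 0.57 for Adipoq, 0.82 for Retn, 0.79 for Cfd, 1.02 for Rarres2, 0.74 for Apln and 0.56 for Nampt. On rebuilt reads that of Adipoq turned to -0.70 (log2 plus 1) and -0.75 (voom), and voom called only Rarres2 and Nampt of these 6. Between days 7 and 11 it was 0.88 for Apln.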

How the results depend on the processing

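Over the alternatives other than leaving out 1 library, 191 of 204 values of the counts of called members stayed within 1.5 times the main count. When 1 library was left out, 212 of 224 did. The count at day 0 was 3 with the shRNAs as separate groups and 1 in 1 fit of all 32 libraries, and at day 3 it was 5 with separate groups. For shRNA 1 at day 0 it was 1 without trend and robust fitting and 1 with the replicate block. Between the shRNAs it was 1 at day 3 in 1 fit of all libraries, and at day 11 it was 2 in that fit, 2 without a filter, 2 without trend and robust fitting and 4 with the replicate block. For the interaction, voom on rebuilt reads gave 0 between days 0 and 3 and 2 between days 3 and 7, and 12 groups with the mean of both shRNAs gave 2, Apln and Nampt, between days 7 and 11. Leaving out 1 library, the count ran from 0 to 1 for knockdown at day 0, 0 to 1 for shRNA 1 at day 0, 0 to 3 between the shRNAs at day 11 and 0 to 1 for the interaction between days 7 and 11.

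Some signs turned. Adipor1 at day 0 was 0.02 at equal totals and 0.01 with the replicate block. With that block Rarres2 at day 3 was 0.05, and 0.11 for shRNA 2, and Apln for shRNA 1 was -0.02. The Adipoq interaction between days 3 and 7 was -0.70 on log2 of rebuilt reads plus 1 and -0.75 by voom. Leaving out 1 library, ranges that crossed 0 were -0.39 to 0.27 (Adipoq), -0.19 to 0.47 (Cfd) and -0.11 to 0.27 (Retn) between the shRNAs at day 3, -0.33 to 0.24 (Retn) between them at day 11, -0.02 to 0.01 (Adipor1, day 0), -0.17 to 0.07 (Cdh13, day 11), -0.02 to 0.03 (Apln, shRNA 1, day 3), -0.12 to 0.01 (Rarres2, shRNA 2, day 3), -0.06 to 0.07 (Apln, control, day 3 to 7) and -0.27 to 0.00 (Cfd, interaction between days 7 and 11). The cause was not tested.

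The replicate numbers did not meet the bar for pairing, a correlation of deviations over 0.1 in every same-numbered pair: these ran from -0.094 to 0.215, and at day 11 they were 0.215, 0.126, 0.142, 0.004 and 0.1. With the replicate block the 4 called between the shRNAs at day 11 were Nampt, Adipoq (adjusted p 0.000423), Cfd (3.42e-05) and Apln (1.7e-06) by limma, the 1 for shRNA 1 at day 0 was Rarres2 (-0.31, 0.0311), and Apln at day 7 had 0.61 (0.118). Low read numbers limit Lep throughout and Adipoq, Retn and Cfd at days 0 and 3.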

Other observations

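The 7 genes together took a larger share of all reads on the later days than at day 0. Of each 1000000 reads, control libraries gave them 125 ± 3.58 at day 0, then 334 ± 6.28, 928 ± 34.6 and finally 879.8 ± 45.3 over the 3 later days (SD, n = 4). Knockdown libraries gave them 110.0 ± 12.2, 375 ± 71.7, 1925 ± 93.7 and 2311 ± 126 in the same order. The control share was lower at day 11 than at day 7 and the knockdown share higher, and this difference was not tested.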
